A study of Mus musculus with 4 samples.

Results

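The neutrophil-attracting CXC chemokines and their receptor were followed through the cell classes of the inflamed mouse colon. The set was taken by gene symbol and held 7 of the 32285 genes in the count tables: the ligands Cxcl1, Cxcl2, Cxcl3, Cxcl5, Ppbp and Pf4, and the receptor gene Cxcr2. All 7 were found in each of the 4 samples, and all 7 had transcripts in the cells kept. Single-cell RNA sequencing (10x Genomics) had been run on leukocytes of the colonic lamina propria, the connective tissue layer under the gut epithelium, after colitis was induced with dextran sulfate sodium (DSS), a polymer given in drinking water that injures the epithelium.

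The labels describe every sample alike, as DSS-treated mice 10 weeks old, while a legend of the study gives 8 weeks. Per the study, the mice drank 2% DSS for 7 days, the tissue was taken on day 8, the colons of 3 mice were pooled per sample, and cells were selected with magnetic beads against CD45, a surface protein of leukocytes. The study used AhR+/+ and AhR-/- mice, but the labels do not give the genotype of any sample. The samples are therefore called 1 to 4, values are given for each of them, a median over samples serves only to describe a range or to pick a leading class, and no comparison of genotypes is given here. Each pool is 1 library, so differences between samples have no replicate check, and all intervals below are exact 95% intervals that cover counting error only.

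The deposited tables held 8493 to 13730 cells and 72509408 to 135516016 transcript counts (unique molecular identifiers, UMIs) per sample. After filtering and doublet removal, 7539 to 11824 cells per sample remained, with median depths of 5633.5 to 7084 UMIs, and pairs of samples shared 23 to 49 cell barcodes. Cells were clustered without the 7 genes, and a cell was counted in a class only when its cluster and its own markers gave the same name. This left 8987 monocyte-macrophage-like cells, 5644 neutrophil-like cells, 5569 B-cell-like cells and 702 fibroblast-like cells as the classes most used below, and "-like" is left out from here on. Fibroblasts were 0.669% to 3.69% of the kept cells although CD45 selection should remove them, and 8 of 8 fibroblast markers were highest in that class in all 4 samples. For neutrophils and monocyte-macrophages, 9 of 10 markers each were. The same lists named the clusters and gated the cells, so these counts are no independent check of the names. Levels are given in CPM: the UMIs of a gene summed over a class in a sample, divided by all UMIs of that class and sample and multiplied by 1000000. Values of different genes are on this scale without correction for length. Classes with under 50 cells in a sample were not read there.

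Chemokines with a CXC motif are small secreted proteins that guide leukocytes along concentration gradients. Cxcl1, Cxcl2, Cxcl3, Cxcl5 and the processed product of Ppbp bind Cxcr2, a G protein-coupled receptor on neutrophils through which these cells leave the bone marrow and enter inflamed tissue such as the colon. Pf4, the platelet factor gene, lies beside them but its protein lacks the ELR residues that the Cxcr2 ligands carry. The ligand genes are induced by NF-kappaB downstream of TNF, IL-1 and microbial products, and IL-17 adds to this in stromal cells by stabilising their transcripts.

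The 6 ligand genes lay on the plus strand of chromosome 5 (GRCm38, GENCODE M21 annotation), in the order Cxcl5 (chr5:90759360-90761624), Ppbp (chr5:90768518-90770063), Pf4 (chr5:90772435-90773383), Cxcl3 (chr5:90786103-90789600), Cxcl1 (chr5:90891241-90893115) and Cxcl2 (chr5:90903871-90905938). Cxcr2 lay on the plus strand of chromosome 1 (chr1:74153989-74161246). RefSeq promoters (GRCm38.p6) were matched for 6 of the 7 genes, all but Cxcl5. The 90 bases from 120 to 31 bases before the transcription start of Cxcl1 (chr5:90891125-90891214), Cxcl2 (chr5:90903779-90903868) and Cxcl3 (chr5:90785981-90786070) are shown. Monocyte-macrophages held each of these 3 Cxcr2 ligands at 190 CPM or more in every sample. Capitals mark the longest run of letters that the 250 bases before the 3 starts have in common.
Cxcl1: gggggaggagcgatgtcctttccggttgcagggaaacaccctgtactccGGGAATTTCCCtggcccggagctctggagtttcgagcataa
Cxcl2: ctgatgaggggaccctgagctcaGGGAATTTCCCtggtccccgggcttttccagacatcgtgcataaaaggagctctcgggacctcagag
Cxcl3: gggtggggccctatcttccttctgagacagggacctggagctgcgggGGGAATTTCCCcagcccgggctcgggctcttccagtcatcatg

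The shared run was GGGAATTTCCC, of the kind that NF-kappaB binds, and it began at -71, -97 and -73 from the start. Searched on both strands, it was found in 14 of 32851 promoters (0.0426%), these 3 included, and not in those of Ppbp, Pf4 or Cxcr2. The run was chosen by this comparison, and a match describes the letters only.

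Cxcl1, known in the mouse as KC, was highest in fibroblasts. Its level there was 2042, 1746, 2474 and 1672 CPM in samples 1 to 4, and 83.0% to 88.4% of fibroblasts held at least 1 UMI. In monocyte-macrophages it was 240, 190, 423 and 1102 CPM, and in neutrophils 17.6 to 42.5 CPM. The fibroblast level was thus above every other class read in each sample, but by 8.52 times (8.09 to 8.97) in sample 1, 9.18 (8.61 to 9.79) in sample 2, 3.78 (3.49 to 4.11) in sample 3 and 1.52 (1.45 to 1.58) in sample 4. The next class was the monocyte-macrophages, except in sample 3, where endothelial cells were at 654 CPM. The fibroblast level stayed between 1672 and 2474 CPM, while the monocyte-macrophage level ran from 190 to 1102 CPM. In monocyte-macrophages the transcript was concentrated: the 10% of cells with the most Cxcl1 held 82.2%, 84.5%, 72.4% and 56.0% of its UMIs, against 38.0% to 41.5% in fibroblasts.

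**Figure D1:**
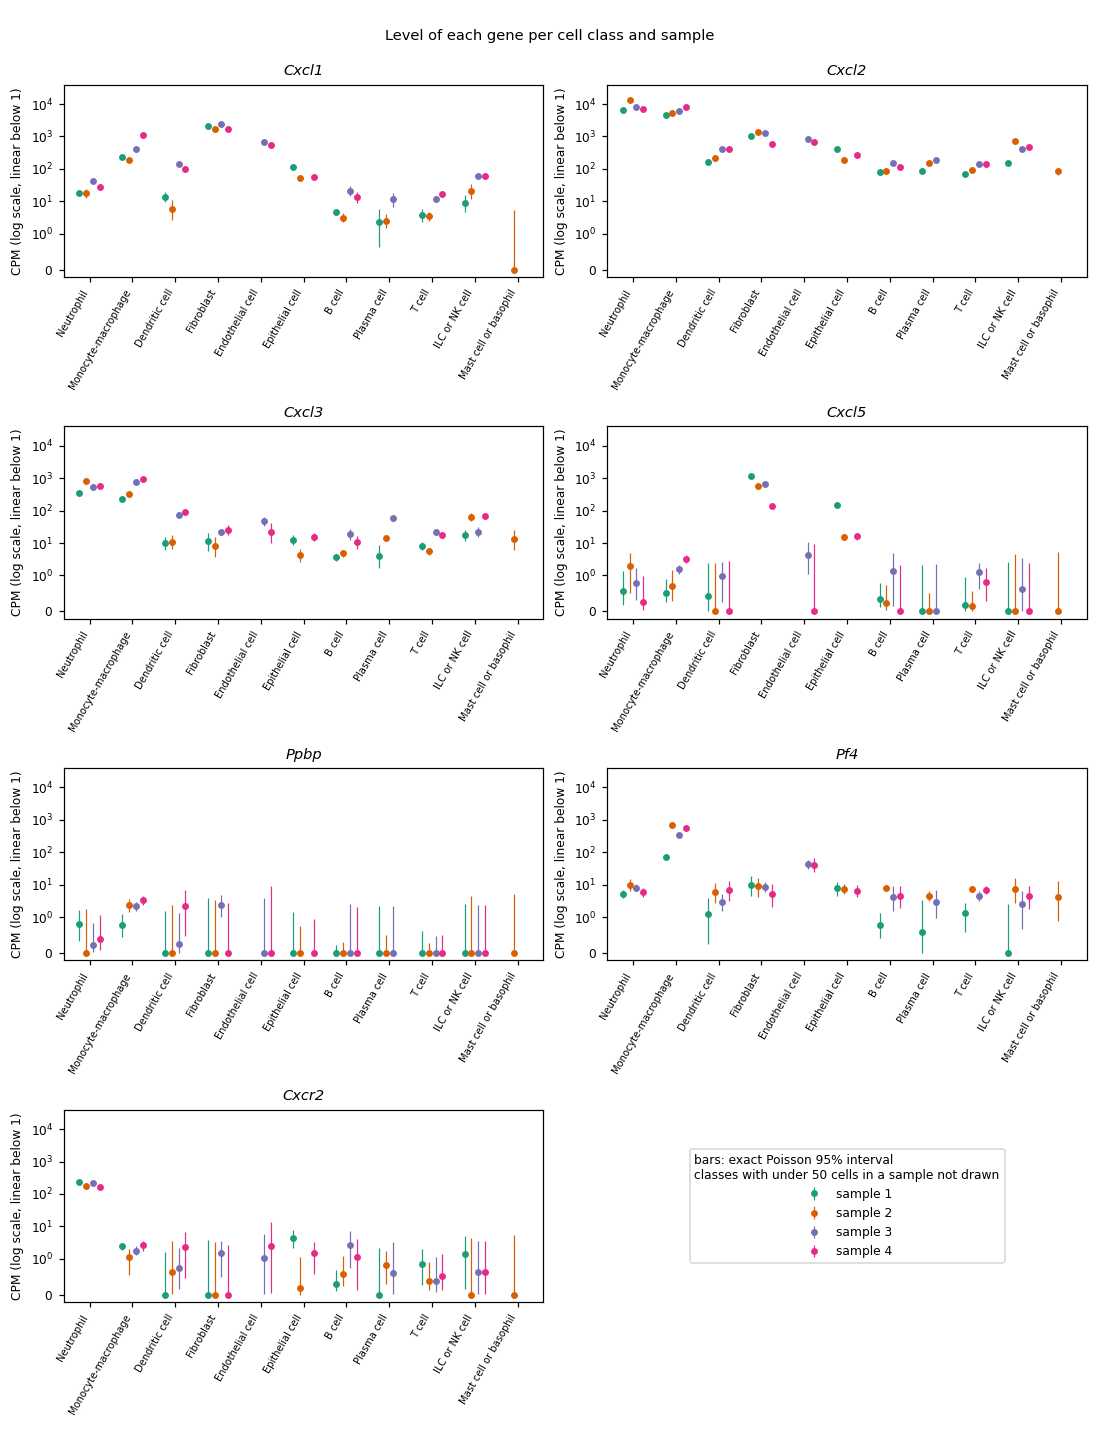
Level of each gene in CPM (log axis, linear below 1) per cell class, with 1 point per sample and exact Poisson 95% intervals as bars. Cxcl1 and Cxcl5 peak in fibroblasts, Cxcl2 and Cxcl3 in both neutrophils and monocyte-macrophages, Pf4 in monocyte-macrophages and Cxcr2 in neutrophils, while Ppbp stays at or below 3.36 CPM in every class drawn.

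B cells, taken as a class that should lack these transcripts, gave the level that free RNA in the droplets can reach. For Cxcl1 it was 4.73, 3.15, 21.1 and 13.5 CPM. Median depths were 3695 to 5127.5 UMIs in B cells, 2919 to 5943.5 in neutrophils, 5872 to 8917 in monocyte-macrophages and 7013 to 12350 in fibroblasts. When every cell was thinned to 1000 UMIs so that depth no longer differed, Cxcl1 was found in 60.7% to 71.6% of fibroblasts, 11.2% to 38.7% of monocyte-macrophages and 0.27% to 2.83% of B cells. Although fibroblasts had the highest level, they were few, and monocyte-macrophages supplied 55.0%, 36.7%, 41.5% and 66.0% of the Cxcl1 UMIs in samples 1 to 4. Fibroblasts supplied 19.2%, 38.0%, 34.7% and 10.7%, slightly more than monocyte-macrophages in sample 2 and less in the others. These shares depend on the cells that the CD45 selection and dissociation let through, and on their RNA content.

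Cxcl2, the gene for MIP-2, was high in both neutrophils and monocyte-macrophages. In neutrophils its level was 6449, 13126, 8366 and 7122 CPM, and in monocyte-macrophages 4547, 5395, 6071 and 8124 CPM. Neutrophils were higher in samples 1 to 3, by 1.42 times (1.40 to 1.43), 2.43 times (2.40 to 2.47) and 1.38 times (1.37 to 1.39), and lower in sample 4, at 0.877 times (0.867 to 0.886) the monocyte-macrophage level. The order of these classes by CPM therefore turned in 1 of 4 samples. CPM is relative to all UMIs of a class, and neutrophils were the shallower class. Of all Cxcl2 UMIs, monocyte-macrophages supplied 47.09%, 35.65%, 42.11% and 44.26% in samples 1 to 4. Neutrophils supplied less in each sample, at 24.95%, 18.49%, 21.84% and 21.91%, and were also fewer cells. In thinned cells, Cxcl2 was found in 93.2% to 99.7% of neutrophils and 79.9% to 92.4% of monocyte-macrophages, against 7.77% to 15.5% of B cells.

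Outside these classes, fibroblasts held Cxcl2 at 1033, 1401, 1251 and 580 CPM. Endothelial cells, read in samples 3 and 4, were at 821 and 660 CPM, below the fibroblasts in sample 3 and above them in sample 4. The fibroblast level was 13.2, 16.6, 8.27 and 5.05 times the level in B cells, which was 78.3 to 151 CPM. The neutrophil marker S100a8 was not raised in the same way. Its median over samples was 133 CPM in fibroblasts, 172 CPM in B cells and 65880 CPM in neutrophils. Other markers were higher in fibroblasts than in B cells by median. The monocyte-macrophage markers C1qa and Lyz2 were at 14.5 against 8.88 CPM and 33.5 against 24.5 CPM. The neutrophil marker Csf3r was at 5.72 against 4.02 CPM. The part of free RNA in the fibroblast Cxcl2 counts was not tested. Innate lymphoid and NK cells (ILC or NK), in which 6 of 10 class markers were highest in all 4 samples, held Cxcl2 at 151 to 730 CPM. Within them, a cluster led by Calca and Pard3, with the type 2 ILC genes Gata3 and Il1rl1 among its 10 leading genes, reached 1391 CPM in sample 4, the only sample in which it had at least 50 cells (74). In the same sample, a cluster with Il22, Il23r and Il17a but also the gamma-delta T cell receptor gene Trdc among its 10 leading genes stood at 94.6 CPM.

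Cxcl3, whose protein is closely related to that of Cxcl2, was spread over the same classes but in another order. Its level was 358, 847, 550 and 575 CPM in neutrophils and 224, 324, 773 and 973 CPM in monocyte-macrophages. Neutrophils were higher in samples 1 and 2, by 1.60 times (1.53 to 1.67) and 2.62 times (2.47 to 2.77), and lower in samples 3 and 4, at 0.711 times (0.689 to 0.734) and 0.591 times (0.570 to 0.612). In thinned cells, Cxcl3 was found in 20.9% to 36.7% of neutrophils, 12.7% to 35.7% of monocyte-macrophages and 0.342% to 1.06% of B cells. Fibroblasts, high in Cxcl1 and above B cells in Cxcl2, held Cxcl3 at only 8.10 to 25.1 CPM, against 3.59 to 18.4 CPM in B cells. Reads that Cxcl1, Cxcl2 and Cxcl3 could share were not examined, and any such reads would make their separate counts uncertain.

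Cxcl5, which encodes LIX, was at its highest in fibroblasts, followed by epithelial cells where these were read. Fibroblasts held it at 1139, 590, 645 and 143 CPM, and 32.1% to 62.7% of them had at least 1 UMI, or 8.59% to 30.6% after thinning. Epithelial cells followed in samples 1, 2 and 4 at 147, 15.5 and 16.0 CPM. Monocyte-macrophages were at 0.517 to 3.28 CPM and B cells at 0 to 1.36 CPM. The fibroblast level exceeded the next class by 7.77 times (6.89 to 8.77), 38.0 times (29.9 to 48.9), 155 times (60.6 to 571) and 8.95 times (6.70 to 12.1). A single fibroblast carried 434 of the 1081 Cxcl5 UMIs of that class in sample 1 (40.2%), so the level of this sample rests in large part on 1 cell.

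Ppbp, the platelet basic protein gene, was close to the limit of detection. The kept cells of samples 1 to 4 held 30, 42, 126 and 63 Ppbp UMIs in 15, 21, 39 and 27 cells. In monocyte-macrophages this came to 0.776, 2.34, 2.15 and 3.36 CPM. No Ppbp UMI was found in the B or T cells of any sample, and 3 counts, taken as the limit that a count of 0 allows, would be 0.180, 0.249, 2.05 and 1.69 CPM in B cells. Platelets bound to leukocytes or caught in droplets are a known source of this transcript. Cells with at least 2 of 8 platelet markers numbered 48, and they held 80 of the 261 Ppbp UMIs. Of these 80 UMIs, 62 lay in sample 3, where such cells numbered 19, and 0 in sample 1. A cluster of low depth left without a name, led by Gm26917 and Bcar3, held Ppbp at 0, 0, 172 and 68.4 CPM. Whether the Ppbp counts in monocyte-macrophages came from attached platelets was not tested.

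Pf4, although named for platelets, was a transcript of monocyte-macrophages here. Its level in that class was 71.8, 686, 330 and 545 CPM, 7.57 times (3.98 to 16.6), 68.6 times (44.8 to 111), 7.77 times (5.72 to 10.8) and 13.1 times (8.19 to 22.5) that of the next class. Monocyte-macrophages carried 82.6% to 90.0% of all Pf4 UMIs, while the 48 cells with platelet markers carried 458 of 27235. Of these 458 UMIs, 351 lay in the 19 such cells of sample 3. As the 48 were few of the 39550 kept cells, they held more Pf4 UMIs than their number alone would give. The transcripts were concentrated, since the 10% of monocyte-macrophages with the most Pf4 held 73.2% to 96.6% of the UMIs of the class. Endothelial cells, read in samples 3 and 4, were at 42.6 and 41.5 CPM.

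Cxcr2 was a neutrophil transcript. Neutrophils held 239, 174, 217 and 164 CPM, and monocyte-macrophages 1.12 to 2.59 CPM, a ratio of 99.1 (76.0 to 132), 156 (86.2 to 316), 120 (88.7 to 168) and 63.3 (45.0 to 91.8). B cells stood at 0.299 to 2.73 CPM, which overlapped the range of the monocyte-macrophages. Cxcr2 was found in 37.0% to 64.4% of neutrophils at full depth and 14.8% to 18.6% of thinned neutrophils. Neutrophils thus carried the transcripts of the receptor and of a ligand. In thinned neutrophils, Cxcl2 was found in 90.9%, 100%, 98.4% and 96.97% of cells with a Cxcr2 UMI and in 93.7%, 99.6%, 97.7% and 96.2% of cells without one.

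**Figure D2:**
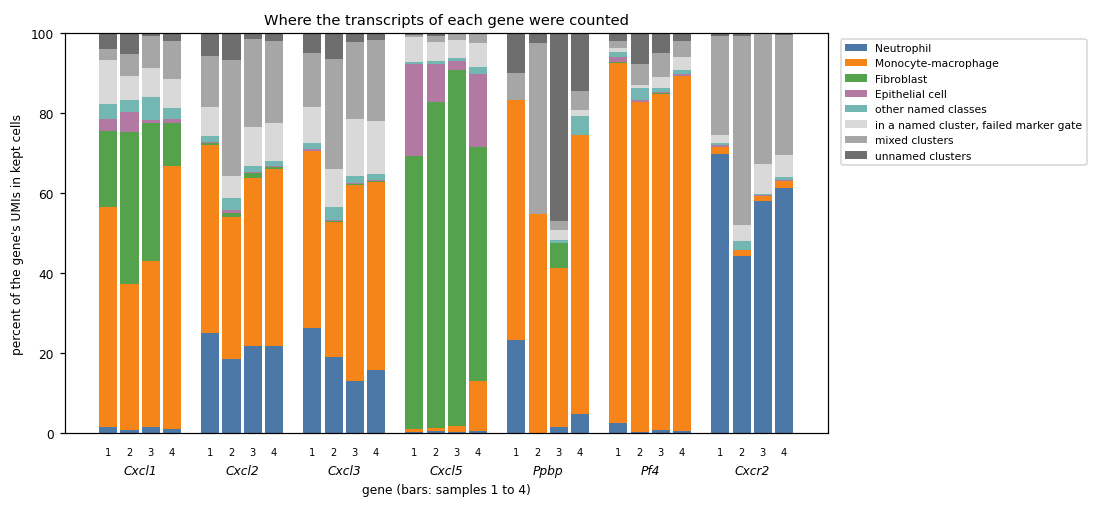
Percent of each gene's UMIs in the kept cells (vertical axis) by the class in which they were counted, with 1 bar per sample for each gene. Mixed clusters, cells that failed the marker gate and unnamed clusters are drawn in grey, and for Cxcr2 the mixed clusters hold 24.9% to 47.2%.

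Of 8137 genes that reached 50 CPM in at least 1 class and sample, 7.95% were highest in fibroblasts in 4 of 4 samples, 3.38% in monocyte-macrophages and 6.40% in neutrophils. The members, of which 6 reached that level (all but Ppbp), were divided over these classes: Cxcl1 and Cxcl5 were highest in fibroblasts in 4 of 4 samples, Pf4 in monocyte-macrophages and Cxcr2 in neutrophils. Cxcl2 was highest in neutrophils in 3 samples and Cxcl3 in 2. At over 2-fold above every other class in 4 of 4 samples, the background shares were 4.45%, 0.934% and 2.21%, and Cxcl5, Pf4 and Cxcr2 passed in fibroblasts, monocyte-macrophages and neutrophils in turn.

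The monocyte-macrophages were divided into 8 sub-clusters, again without the 7 genes, to ask which of these cells carried the ligands. Sub-cluster M1, led by Cxcl10, S100a4 and Plac8, and M6, led by Chil3, S100a8 and Slpi, were monocyte-like. M3, led by Fabp5, Acp5 and Arg1, was Arg1 macrophage-like, and M5, led by H2-Eb1, H2-Ab1 and Itga9, was C1q macrophage-like with 4 of 10 markers raised, C1qb among its 10 leading genes. M2, whose leading genes after Cxcl1 were Arg1 and Pf4, M4, led by Ccl7, Ccl8 and Vcam1, and M0, led by Ly6a, Ifitm1 and Cxcl9, stayed unnamed, although 10 of 10 C1q macrophage markers were raised in M4, because none was among its 10 leading genes. The sub-clusters were unevenly spread over the samples: M2 had 21 and 24 cells in samples 1 and 2 against 277 and 719 in samples 3 and 4, and M6 had 56 and 11 against 1315 and 558. Levels also differed between samples within a sub-cluster, as the values below show, and the part of the makeup in the spread of class levels was not tested.

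Cxcl1 was highest in M2, at 1254 and 1906 CPM in samples 3 and 4, and was 576, 294, 747 and 1092 CPM in M4. The monocyte-like M6 held 69.5, 182 and 420 CPM in samples 1, 3 and 4, and M1 held 87.3, 75.7 and 64.6 CPM in samples 1 to 3. M3 held 565 and 1160 CPM in samples 3 and 4, below M4 in sample 3 and above it in sample 4. Against M6, M2 held 6.91 times (6.47 to 7.38) and 4.54 times (4.30 to 4.79) as much. M4 was above the monocyte-like cells (M1 and M6 together) by 6.70, 3.72, 4.25 and 2.65 times in samples 1 to 4. Cxcl3 ran the other way in M4. It was 423, 1163 and 1716 CPM in M6, and M4 stood at 0.213, 0.0984, 0.212 and 0.119 times the monocyte-like level. M2 was below M6 in Cxcl3, at 0.921 times (0.873 to 0.970) in sample 3 and 0.601 times (0.578 to 0.625) in sample 4. At 1031 to 1070 CPM of Cxcl3, M2 still held both Cxcl1 and Cxcl3. Cxcl2 differed less, at 1.07, 0.618, 0.951 and 0.757 times in M4, and was highest in M2 at 10856 and 10984 CPM. Pf4 followed Cxcl1 rather than Cxcl3, with M4 at 47.4, 55.1, 12.3 and 22.6 times the monocyte-like level. In M3, Pf4 was 542 and 633 CPM and Cxcl3 506 and 540 CPM in samples 3 and 4.

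**Figure D3:**
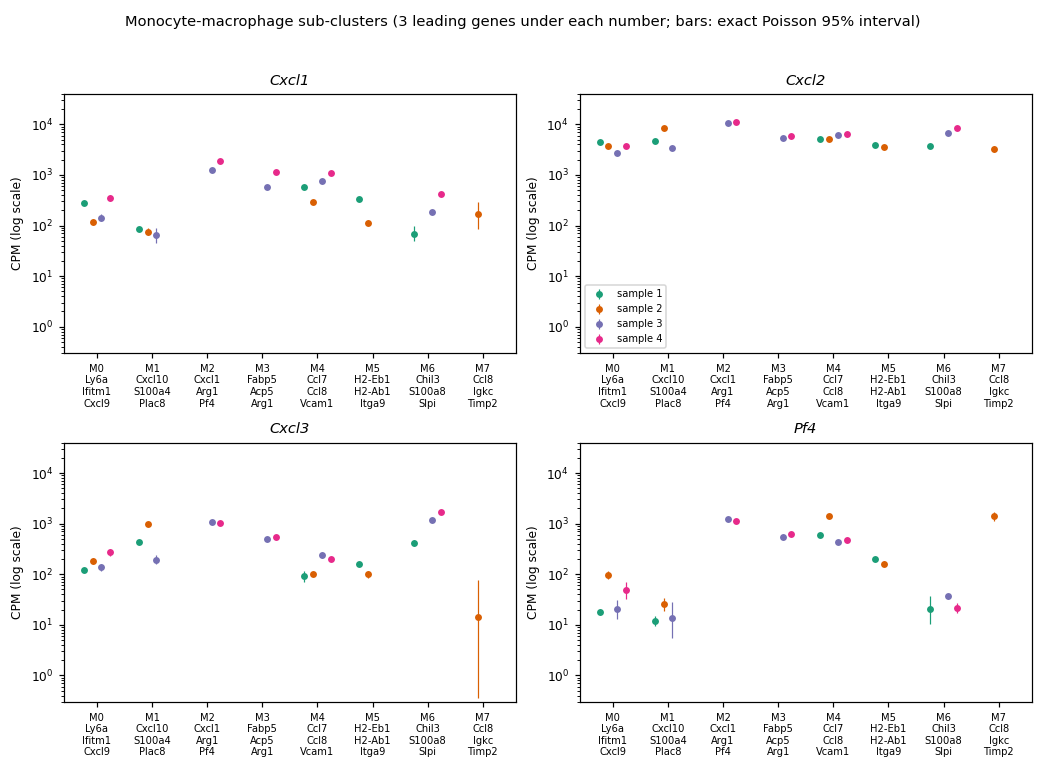
Level of Cxcl1, Cxcl2, Cxcl3 and Pf4 in CPM (log axis) in the monocyte-macrophage sub-clusters M0 to M7, with 1 point per sample and exact Poisson 95% intervals. Cxcl1 and Pf4 are high in M2, M3 and M4, whereas Cxcl3 is high in the monocyte-like M6 and low in M4, at 91.7 to 236 CPM.

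A split of the same class by C1q transcripts, rather than by sub-cluster, gave the same directions for Cxcl1, Cxcl3 and Pf4. The class itself still came from clusters and markers, C1qa among them. Monocyte-macrophages with a UMI of all 3 C1q genes after thinning (C1qa, C1qb and C1qc, which encode the chains of a complement protein made by resident macrophages) were set against those with none, 350 to 504 cells against 489 to 1722 per sample. Cxcl1 was higher in the C1q-positive cells, at 399 against 149 CPM, 262 against 81.7, 607 against 237 and 1314 against 669, which is 2.68, 3.21, 2.56 and 1.96 times. Cxcl3 was lower, at 0.469, 0.114, 0.273 and 0.332 times, and Pf4 was higher, at 18.5, 16.3, 13.3 and 6.51 times. Cxcl2 was at 1.10, 0.706, 0.847 and 0.923 times, so that its direction differed in sample 1. Among the 4078 genes compared, 3.51% were over 2-fold higher in 4 of 4 samples, Pf4 among them, and 2.16% over 2-fold lower, Cxcl3 among them.

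Ligands were also compared cell by cell in monocyte-macrophages thinned to 1000 UMIs. Cxcl1 was found in 14.6%, 12.9%, 20.7% and 40.9% of cells with a Cxcl2 UMI, against 2.64%, 3.38%, 4.49% and 12.0% of cells without. For Cxcl3 the shares were 14.97%, 19.6%, 34.6% and 38.0% against 3.85%, 4.51%, 10.8% and 8.67%. Cxcl2 itself was in 94.6% to 97.7% of cells with Cxcl1 and in 77.7% to 89.1% of cells without. Between Cxcl1 and Cxcl3 the shares lay closer, and their order turned in sample 2: Cxcl3 was found in 20.8%, 14.97%, 42.05% and 43.6% of cells with Cxcl1 and in 11.6%, 17.1%, 29.6% and 30.8% of those without.

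Neutrophils were divided in the same way, and 3 sub-clusters of high depth led by genes of other classes were moved to the mixed cells. N1, led by Cstdc5, Stfa3 and Stfa2, carried the granule genes Ngp, Ltf and Camp, which neutrophils express as they mature in the bone marrow. N2 was the activated one, led by Ccrl2, Clec4n and Dhx40, with a median depth 0.525 times that of the class. Cxcl2 was 14307, 18411 and 16450 CPM in N2 of samples 1 to 3, and 4795, 6566 and 6076 CPM in N1 of samples 1, 3 and 4. N2 exceeded N1 by 2.98 times (2.82 to 3.16) and 2.51 times (2.41 to 2.60) in samples 1 and 3, where both were read. Median depths there were 2870 and 1945.5 UMIs in N2 against 6171 and 4201 in N1. As raw counts, N2 held 7723 Cxcl2 UMIs in 175 cells and N1 1488 in 51 in sample 1. In sample 3, N2 held 3083 in 92 cells and N1 14826 in 505, so counts per cell differed less than CPM. The part of depth in these ratios was not tested. Cxcl1, low in neutrophils as a class, was 163, 53.9 and 374 CPM in N2. Cxcl3 did not run with them against N3: N2 stood at 0.581 and 0.647 times the level of N3, the sub-cluster led by Slc24a3 and Id2, while Cxcl2 stood at 1.90 and 1.85 times.

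**Figure D4:**
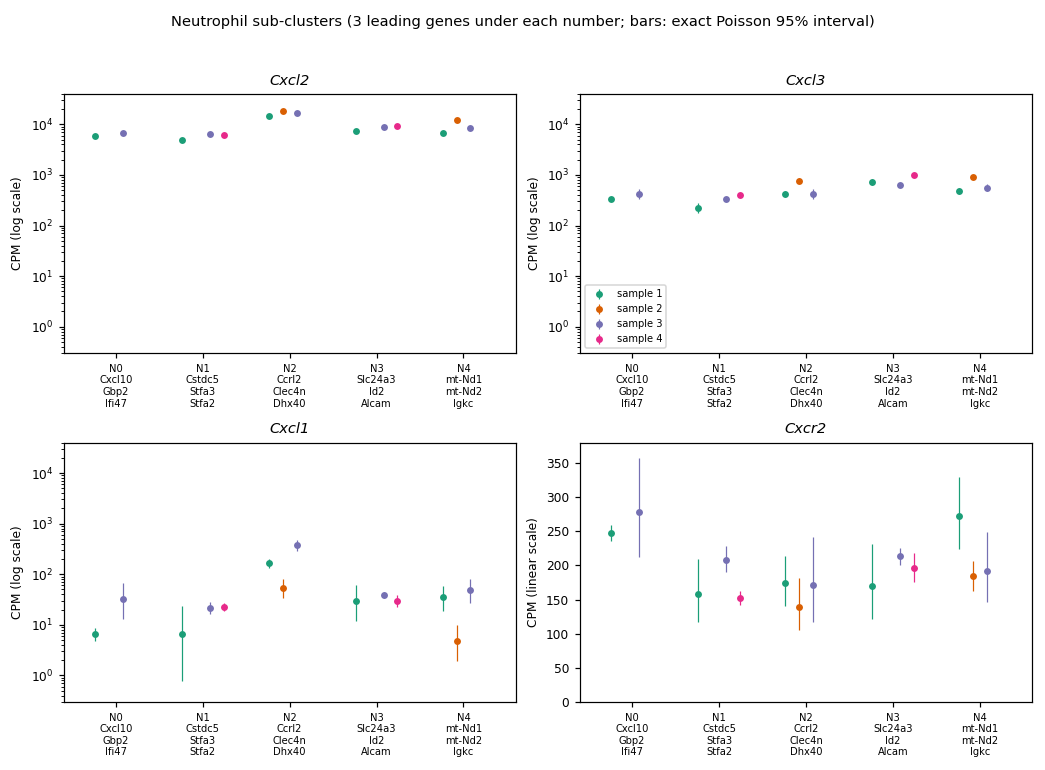
Level of Cxcl2, Cxcl3 and Cxcl1 (CPM, log axes) and of Cxcr2 (CPM, linear axis from 0) in the neutrophil sub-clusters N0 to N4, with 1 point per sample and exact Poisson 95% intervals. Cxcl2 and Cxcl1 are highest in N2, and the intervals of Cxcr2 overlap between most sub-clusters.

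The granule-rich N1 had 51, 3, 505 and 826 cells in samples 1 to 4. At sub-cluster resolution 1.0, the granule-named sub-cluster had 145, 9, 261 and 165 cells, so this spread depends on the resolution. The other neutrophils differed in makeup between samples. N0, led by Cxcl10 and Gbp2 and with 3 of 8 granule markers raised, had 1001 cells in sample 1. N3 had 1432 and 404 in samples 3 and 4. Against all other neutrophils, N1 held less Cxcl2, at 0.737, 0.730 and 0.627 times in samples 1, 3 and 4. Cxcl3 was also lower in N1, at 0.621, 0.535 and 0.407 times. Cxcr2 was at 0.652 (0.481 to 0.866), 0.947 (0.851 to 1.05) and 0.788 (0.699 to 0.890) times, and the interval of sample 3 included 1. Of 3019 genes compared, 0.331% were over 2-fold higher and 0.961% over 2-fold lower in 3 of 3 samples, and none of the members was in either set. Neutrophils of the same class were also split by their own granule markers after thinning, rather than by sub-cluster. Those with at least 4 of 8 markers were set against those with at most 1. The former numbered 252, 41, 284 and 383 in samples 1 to 4, and sample 2 was not read. In sample 1 they outnumbered N1, so cells with granule markers were also among the other neutrophils above. Of 3096 genes, 1.91% were over 2-fold higher and 2.52% over 2-fold lower, again with no member in either set. Cxcl2 was at 0.489, 0.629 and 0.552 times and Cxcl3 at 0.432, 0.586 and 0.344 times. Cxcr2 was at 0.917 (0.797 to 1.06), 0.945 (0.809 to 1.10) and 0.864 (0.702 to 1.07) times, so no difference was detectable at this depth. Granule-high cells were also deeper, with median depths of 7807.5, 4757 and 6411 UMIs against 3767.5, 2706 and 2950.5, and the part of depth in these ratios was not tested.

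**Figure D5:**
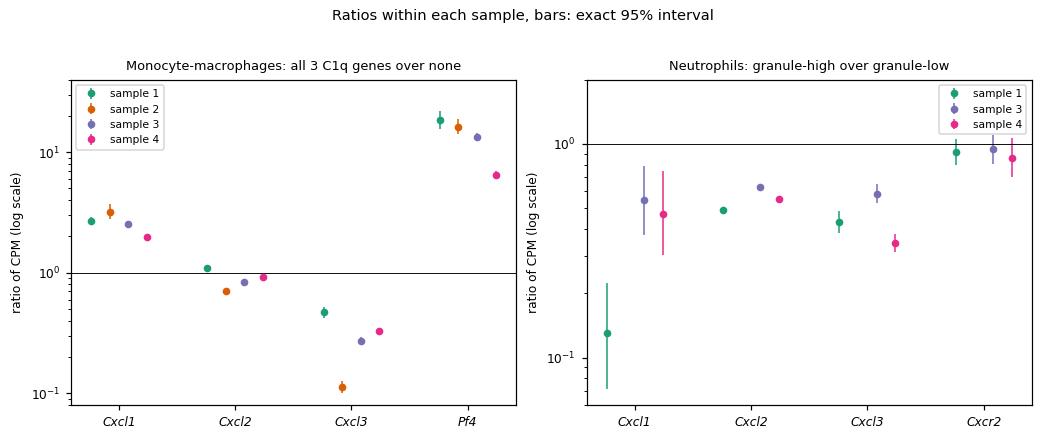
Ratio of CPM (log axis) within each sample, with exact 95% intervals, for monocyte-macrophages with all 3 C1q genes over those with none (left) and for granule-high over granule-low neutrophils in samples 1, 3 and 4 (right). Cxcl1 and Pf4 lie above 1 and Cxcl3 below 1 on the left, and Cxcl2 lies below 1 on the right, from 0.489 to 0.629.

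The other genes of the pathway were taken from a list of 28: further receptors and ligands, the granulocyte growth factor axis, other chemoattractant receptors, inducing cytokines and regulators of chemokine transcripts. By median level over the 7 classes read in all 4 samples, which leaves out endothelial, epithelial, plasma and mast cells, neutrophils led for 14 of them, fibroblasts for 8, ILC or NK cells for 3, monocyte-macrophages for 2 and T cells for 1. Of the 28 genes, 10 were highest of all classes read in neutrophils in 4 of 4 samples, 3 in fibroblasts and 1 in ILC or NK cells. Of the 8137 genes that reached 50 CPM, 6.40% were highest in neutrophils in 4 of 4 samples, and 7.95% in fibroblasts. No such share is given for ILC or NK cells. The list also holds genes below 50 CPM, such as Cxcr1, which is among the 10. The list was chosen for this pathway, and Csf3r was also among the markers that named the neutrophils. These counts therefore describe the list only. Cxcr1, the other receptor for ELR chemokines, was low even in neutrophils, at 3.38 to 14.3 CPM. Cxcl12, a chemokine for Cxcr4 made by stroma, reached 1044 to 1495 CPM in fibroblasts, where Il1r1, the IL-1 receptor gene, was also highest in all 4 samples. Il17a was highest in ILC or NK cells, at 100 to 194 CPM. Csf3r, the receptor gene for the growth factor G-CSF, and Fpr1, a receptor gene for formyl peptides, were at 623 to 797 and 834 to 1038 CPM in neutrophils. Il1b, the gene of an inducer, had its highest median in monocyte-macrophages at 2826 CPM, but was highest there in only 2 of 4 samples.

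Over the 37 class-by-sample profiles, the genes whose log2(CPM + 1) levels ran most like each member were listed by Pearson's r as a description, since the profiles share libraries and free RNA. For Cxcl2 these were Dmxl2 (r = 0.943), Cebpb and Slc31a2, and for Cxcl3 Dmxl2 (0.910), Clec4d and Arg2. For Cxcl1 they were Pkd2 (0.903), Ctsl and Csrnp1. Cxcl5 ran with Naaladl2 (0.954), Sdc2 and Kcnma1, Pf4 with Mrc1 (0.924), C3ar1 and Ms4a7, and Cxcr2 with S100a9 (0.969), Retnlg and Il1f9. Ppbp had the lowest such value, with Tfec at 0.804. Among the members, Cxcl2 and Cxcl3 were most alike (0.882), followed by Cxcl1 and Cxcl5 (0.691), whereas Cxcl1 and Cxcl3 gave 0.317.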

How the data were processed

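Single-cell libraries of 4 pooled colon samples were used. The values deposited are raw UMI counts for each gene in each cell, with no normalization. The submitters' processing notes name Cell Ranger 5.0.0, STAR, Seurat and mm10, while the file header gives Cell Ranger 7.0.1. Cells with at least 200 genes and under 20% mitochondrial UMIs were kept, and the highest doublet scores were removed at 0.8% per 1000 cells. The samples were clustered together, without integration, with scanpy 1.11.5 (2000 variable genes, 30 components, resolution 1.0, sub-clusters 0.6) without the 7 genes. Marker lists named the clusters, and at least 2 own markers were needed per cell. The scoring, mixed and naming rules were set after the clusters were seen. Members and lists were chosen with earlier results of these data known. Named genes were the members, the listed pathway genes, the 3 best correlated genes per member, leading genes of sub-clusters and marker checks. CPM of summed counts, exact Poisson intervals, exact conditional intervals for ratios and exact binomial intervals for shares (scipy 1.17.1) were computed. The method was tested on simulated counts. No p-value was computed. The labels put no sample in a group, cells are not replicates, and 4 paired samples cannot reach the usual threshold in an exact test. Gene positions came from GENCODE M21, which held 32158 of 32285 gene IDs. The splits by C1q and granule markers were added after seeing the data. Alternatives of filter, gate, doublet removal, resolution and scaling are given in the closing section.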

Additional observations from a re-analysis of the deposited data

How the results depend on the processing

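Each of 134 recomputed values was the number of samples in which the reported class or sub-cluster was highest, or the reported direction held, and 124 of these counts stayed within 1.5 times the reported one. The counts for Cxcl1, Cxcl5, Pf4 and Cxcr2 by class stayed at 4 of 4 samples under every alternative run. After thinning, neutrophils had the highest share of cells with Cxcl2 in 4 samples rather than 3, and with Cxcl3 in 3 rather than 2. Lower Cxcl2 in granule-rich neutrophils held in 3 of 3 samples throughout, but lower Cxcr2 held in 2 rather than 3 with at least 500 genes per cell or without the marker gate. The Ppbp class was highest in 4 samples rather than 2 with means of counts per 10000 per cell. Within monocyte-macrophages, M2 led for Cxcl5 in 1 of 2 samples, in 2 with at least 500 genes per cell, and in 0 without the marker gate or at sub-cluster resolution 1.0. For Ppbp, M2 led in 1 of 2 samples, in 2 with under 10% mitochondrial UMIs, with at least 500 genes or without the gate, and in 0 without doublet removal. For Pf4, M2 led in 2 samples, and in 1 with under 10% mitochondrial UMIs or without doublet removal. Some levels moved more than the counts. The median Cxcr2 level of neutrophils was 196 CPM, and 123 CPM with the marker gate alone. The median Cxcl3 level of the leading sub-cluster was 1163 CPM over the 3 samples read. It was 1987 CPM without doublet removal and 1902 CPM at resolution 1.0, each over only 2 samples read. The matched sub-clusters of these alternatives shared 1007 and 1100 of the 1940 cells of M6. These medians are therefore not over the same samples or cells. The median Cxcl5 level in M2 was 5.33 CPM, and 1.13 and 1.14 CPM without the gate and at resolution 1.0. The cause was not tested. Classes and sub-clusters were compared within each sample, so these comparisons were paired by sample. No paired test was run, because 4 pairs cannot reach the usual threshold in an exact test. Medians over samples were not recomputed with a sample left out, since each sample's value is given.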
